A study of Mus musculus with 9 samples.

Results

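GATA3 and 9 further genes linked to type 2 and tissue-repair regulatory T cells (Tregs) were examined in gut Tregs of 3 genotypes. The 10 genes, Gata3, Klrg1, Il17rb, Areg, Pparg, Il5, Il13, Nfil3, Dgat2 and Ptgir, were chosen by name with earlier results of these data known. Each was read from the array feature that the platform annotation pairs with that gene alone, taking the brightest where there were several. Of the 10, 9 had such a feature among 22180 genes that did, and 8 were among the 12792 genes tested. Areg was not analysed here, since the annotation used paired no feature with it. The Tregs were sorted by a red fluorescent protein linked to Foxp3 from lamina propria of small and large intestine. All mice were of strain C57BL/6, and WT, Y3 and Y3/CD103-/- mice gave 3 Affymetrix Gene ST2.0 arrays each. Y3 is not described in the labels. The series title speaks of the IL-2 receptor β chain, the product of Il2rb, and of CD103, an integrin chain made from Itgae. Y3 is read here as an alteration of that β chain. No group lacked CD103 alone, and the mice's ages and pooling were not given in the sources used here, so every p-value measures only the spread between these arrays, which may be technical.

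GATA3 is a zinc finger transcription factor that directs the type 2 programme of T cells. In the intestine a share of Tregs expresses it, and such cells often carry the receptors for the epithelial alarm signals IL-25 and IL-33 and the inhibitory receptor KLRG1. Tregs of this kind are known for the EGF receptor ligand amphiregulin, made by Areg, which promotes tissue repair, and in fat tissue for the nuclear receptor PPAR-γ. IL-2 signals support them in the mouse.

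The labels were checked first. Itgae lay between log2 6.05 and 6.86 on the Y3/CD103-/- arrays, below its 7.85 to 8.06 on the WT arrays and 9.11 to 9.51 on the Y3 arrays. Foxp3, the defining factor of Tregs, lay between 9.29 and 9.68 on all 9 arrays. The mean of 8 Treg markers ran from 9.25 to 9.42, and all 8 were above the array median on every array. The WT arrays gave Il2rb 8.95 to 9.36, the Y3 arrays 7.87 to 8.50 and the Y3/CD103-/- arrays 7.86 to 8.48.

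GATA factors bind short GATA words in DNA, so promoter windows of 3 of the genes are shown, those of the receptor gene Il17rb, which fell, and of the cytokine genes Il5 and Il13, which gave no call. The windows are the 250 bases before the gene start, taken from the RefSeq promoter table on GRCm38.p6, which held 8 of the 10 genes (not Klrg1 or Dgat2). Capitals mark a GATA family word, searched on both strands. The words were AGATAA, then TGATAA with another first base, then AGATAG with another last base, and TGATAG with both changes. The STAT word TTCNNNGAA was searched too and overlapped none of them in these genes.
Il17rb (chr14:30008897-30009146, minus strand): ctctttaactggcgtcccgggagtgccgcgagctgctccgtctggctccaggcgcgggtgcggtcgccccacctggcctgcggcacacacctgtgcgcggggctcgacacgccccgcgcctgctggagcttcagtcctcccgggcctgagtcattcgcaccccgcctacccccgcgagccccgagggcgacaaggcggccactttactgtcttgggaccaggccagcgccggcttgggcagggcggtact
Il5 (chr11:53720544-53720793, plus strand): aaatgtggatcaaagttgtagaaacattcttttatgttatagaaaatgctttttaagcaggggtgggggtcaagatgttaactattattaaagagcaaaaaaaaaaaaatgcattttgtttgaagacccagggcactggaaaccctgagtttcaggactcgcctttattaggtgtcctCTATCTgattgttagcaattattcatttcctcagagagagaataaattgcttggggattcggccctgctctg
Il13 (chr11:53634703-53634952, minus strand): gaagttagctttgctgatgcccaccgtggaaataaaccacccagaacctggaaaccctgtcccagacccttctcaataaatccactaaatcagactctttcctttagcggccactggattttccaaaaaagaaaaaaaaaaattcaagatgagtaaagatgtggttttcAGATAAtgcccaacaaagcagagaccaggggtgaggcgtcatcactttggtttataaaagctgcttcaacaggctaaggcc
Il5 held 1 GATA word, CTATCT on the printed strand, beginning 72 bases before the start, and Il13 held AGATAA beginning 81 bases before it. The window of Il17rb held none, nor did those of Gata3, Areg, Pparg (3 starts), Nfil3 and Ptgir. GATA words occurred in 26.5% of all 32851 windows of this length. The STAT word occurred in 7.02% of them and in 0 of the 10 windows of these genes. A match describes letters only, and the absence of one says nothing beyond these windows.

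In Y3 Tregs, 2 of the 8 tested genes of the group fell against WT and 0 rose. Klrg1, whose product is a lectin-like receptor that dampens lymphocyte responses, fell 4.13-fold. Il17rb, which encodes the chain that binds IL-25, fell 3.10-fold. Gata3 itself lay 1.62-fold lower and did not pass (limma adjusted p = 0.0551). Calls are at an adjusted p under 0.05 in limma with Benjamini-Hochberg adjustment over the 12792 genes, of which 0.79% were called in this comparison, 0.618% upward and 0.172% downward. These shares move with the scaling, from 79 genes up and 22 down here to 46 up and 32 down after quantile normalization. At an unadjusted p under 0.05, 5 of the 8 were lower and 0 higher, where 3.6% of all genes were lower and 13.4% higher. Pparg is among those 5 and entered the test through no Y3 array, which favours a lower value in Y3. Without it, 4 of 7 were lower. Klrg1 and Il17rb also fell in Y3/CD103-/- Tregs against WT, and 0 of the 8 rose, where 0.836% of all genes were called, 0.555% upward and 0.281% downward. Unadjusted, 4 were lower and 0 higher there, beside 5.35% and 7.9% of all genes. Between Y3/CD103-/- and Y3, limma called 0 of the 8 and 0.00782% of all genes. Unadjusted p-values under 0.05 went to 1 higher member (Pparg, which no Y3 array brought past the filter on dim genes) and 1 lower (Il17rb), beside 1.78% and 8.12% of all genes. The comparisons of Y3 and of Y3/CD103-/- with WT share the WT arrays and so are not independent. In these bulk sorts, fewer Tregs of a GATA3 type and less RNA per cell cannot be told apart.

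**Figure D1:**
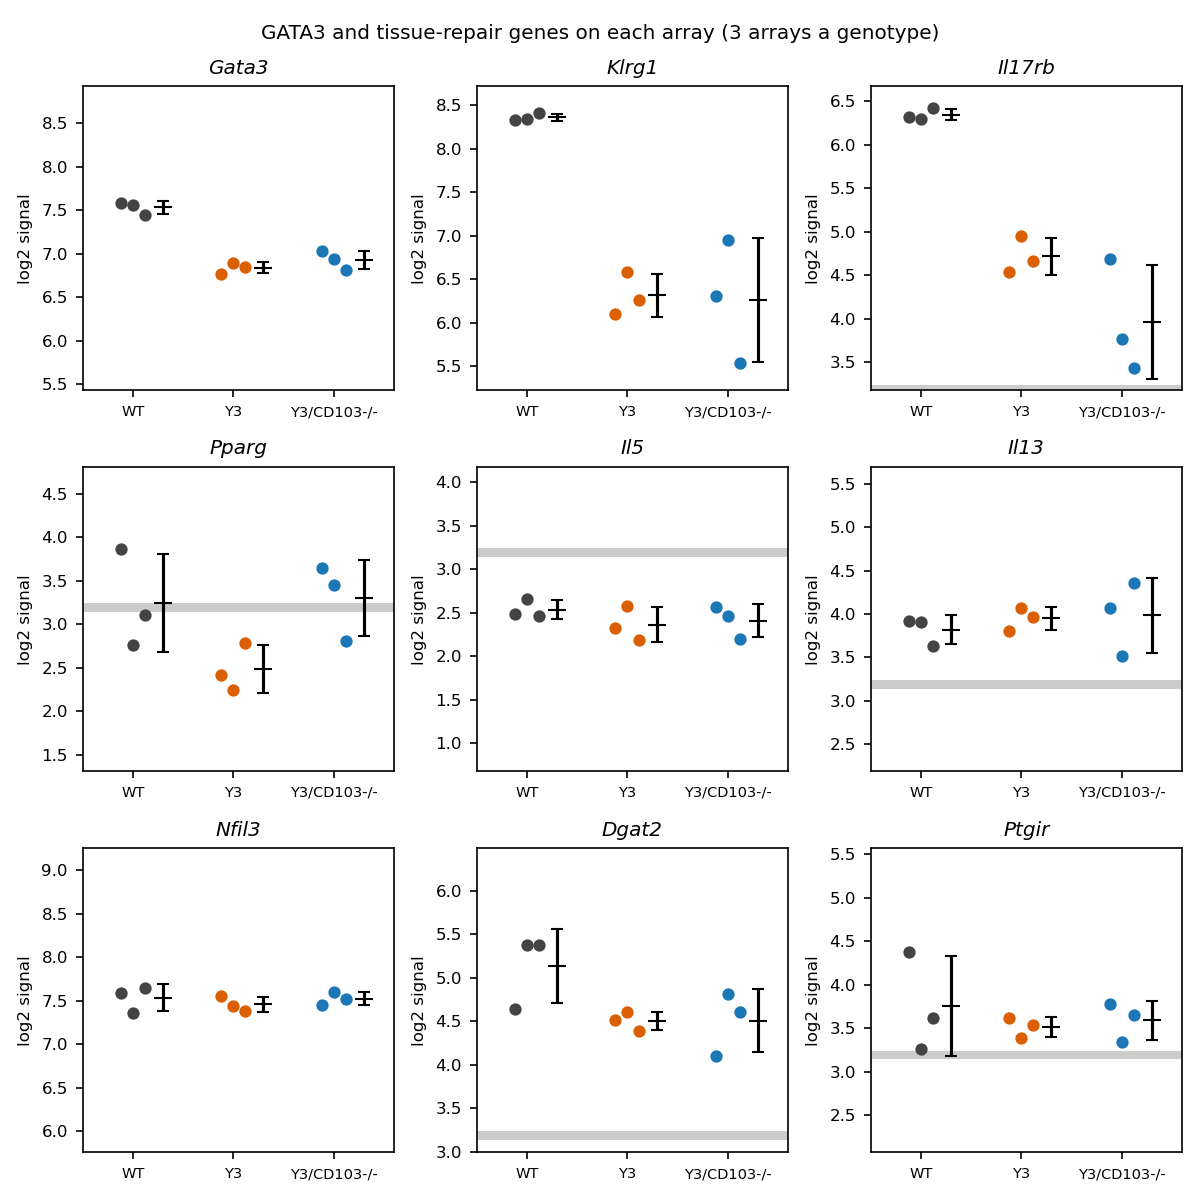
Log2 signal of the 9 measured genes on each array (points, 3 arrays a genotype), with the mean and SD to the right of each group (black) and the range of the array medians, 3.15 to 3.23, as a grey band where it falls inside the panel. All panels span 3.5 log2 units, each with its own range, so heights can be compared as changes and not as levels between genes. Gata3, Klrg1 and Il17rb are the panels in which all 3 WT arrays lie above all 6 other arrays. Of all tested genes, 4.93% lay below WT without overlap in Y3 and 6.68% in Y3/CD103-/-. The share for both groups together was not computed.

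Gata3, the lineage factor, read log2 7.59, 7.56 and 7.45 on WT arrays 1, 2 and 3. Its Y3 arrays read 6.77, 6.90 and 6.85, and its Y3/CD103-/- arrays 7.03, 6.94 and 6.82. Each WT array lay above each array of the other groups, while those 2 groups overlapped. Its log2 difference was -0.69 ± 0.14 (SE) in Y3 against WT (95% interval -1.01 to -0.38, limma adjusted p = 0.0551). For Y3/CD103-/- against WT it was -0.60 ± 0.14 (-0.92 to -0.29, limma adjusted p = 0.0847). Neither passed. The difference of Y3/CD103-/- from Y3 was 0.09 (-0.22 to 0.40). Over all tested genes the median of Y3 against WT was 0.15, and quantile normalization brought it to 0.04. On that scale Gata3 differed by -0.84 in Y3 and passed (limma adjusted p = 0.0358). On the deposited scale with 1 array left out, Gata3 passed in 0 of 9 fits in Y3 against WT (limma adjusted p from 0.0589 to 0.232). In Y3/CD103-/- against WT it also passed in 0 of 9 (0.101 to 0.216).

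The array holds 3 features annotated with Gata3, which allowed the lower level to be read more than once on the same RNA. The values above are those of the brightest. The dimmer feature of Gata3 alone averaged 5.46 ± 0.08 (SD, n = 3) in WT arrays, 5.10 ± 0.17 in Y3 arrays and 5.27 ± 0.18 in Y3/CD103-/- arrays. The log2 difference of that feature was -0.37 (95% interval -0.73 to 0.00) in Y3 and -0.20 (-0.56 to 0.17) in Y3/CD103-/-, smaller than on the brightest feature. A feature shared by Gata3, 9230102O04Rik and 4930412O13Rik averaged 3.73 ± 0.24 in WT arrays, 3.33 ± 0.16 in Y3 arrays and 3.37 ± 0.11 in Y3/CD103-/- arrays, and cannot be assigned to Gata3. On both features of Gata3 alone, and on the shared one, the Y3 arrays lay below every WT array. They did so for 4.93% of all tested genes, each read at its brightest feature. The share over single features was not computed. The dimmer feature overlapped between Y3/CD103-/- (5.47 on array 1) and WT (5.37 on array 3). With each feature fitted as its own row none of the 3 passed (limma adjusted p from 0.114 to 0.36 in Y3). In that fit of 21770 features, added after seeing the data, Klrg1 and Il17rb did not pass in Y3 (0.0691 and 0.0914) and passed in Y3/CD103-/- (0.0498 and 0.0338). The mean of both features of Gata3 alone differed by -0.53 in Y3 (limma adjusted p = 0.112).

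**Figure D2:**
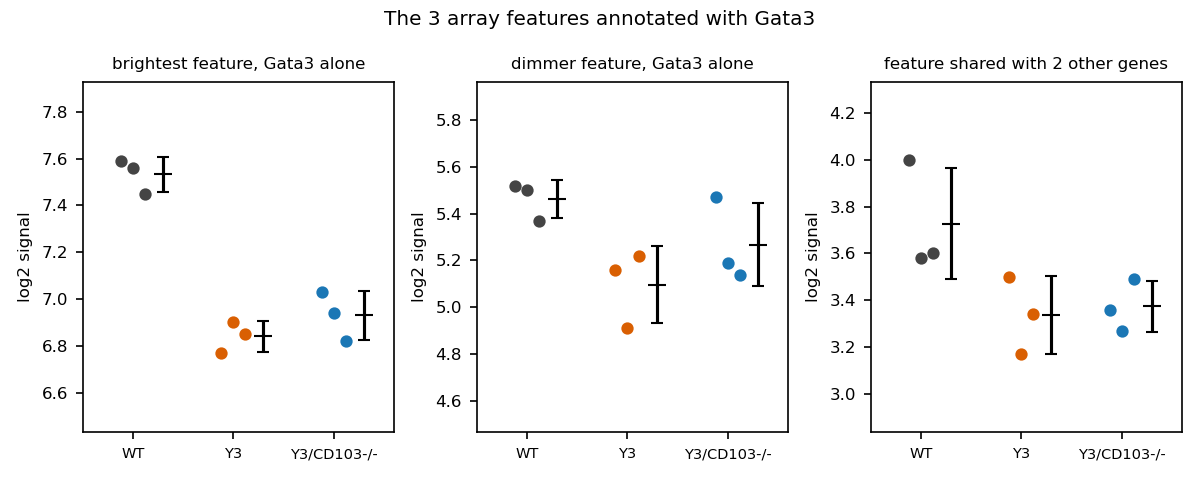
Log2 signal of the 3 features annotated with Gata3 on each array (points), with mean and SD of 3 arrays a genotype in black, on axes of equal span (1.5 log2 units). On each feature all 3 Y3 arrays lie below all 3 WT arrays, with mean differences of -0.69, -0.37 and -0.39. They do so for 4.93% of all tested genes, each read at its brightest feature. The Y3/CD103-/- arrays overlap WT on the dimmer feature of Gata3 alone, and the shared feature cannot be assigned to Gata3.

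Among the surface receptors, Klrg1 showed the tightest WT group. It read 8.33, 8.34 and 8.41 on the WT arrays, 6.10, 6.58 and 6.26 in Y3, and 6.31, 6.95 and 5.53 in Y3/CD103-/-. The WT arrays stood clear of all others, and the Y3/CD103-/- arrays spread on both sides of the Y3 arrays (SD 0.71 against 0.25). The log2 difference was -2.05 ± 0.30 (SE) in Y3 (limma adjusted p = 0.0124) and -2.10 ± 0.30 in Y3/CD103-/-, a fall of 4.27-fold (limma adjusted p = 0.0122). Between Y3/CD103-/- and Y3 it was -0.05, with a 95% interval of -0.70 to 0.60. Klrg1 in Y3 missed the threshold without Y3 array 1 (limma adjusted p = 0.0845) or Y3 array 3 (0.0964). Its fall in Y3/CD103-/- passed with any 1 array left out (0.0041 to 0.045).

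Il17rb read 6.32, 6.30 and 6.42 in WT, 4.54, 4.95 and 4.66 in Y3, and 4.69, 3.77 and 3.43 in Y3/CD103-/-. WT lay above the rest without overlap, and 2 of the 3 Y3/CD103-/- arrays lay below every Y3 array. The log2 difference was -1.63 ± 0.27 in Y3 (limma adjusted p = 0.0246) and -2.38 ± 0.27 in Y3/CD103-/-, a fall of 5.22-fold (limma adjusted p = 0.0045). Its difference between Y3/CD103-/- and Y3, -0.75 (95% interval -1.36 to -0.15), did not pass (limma adjusted p = 0.438). Il17rb in Y3 missed the threshold without WT array 2 (0.0686) or 3 (0.0704), or without Y3 array 1 (0.121), 2 (0.059) or 3 (0.141). The fall in Y3/CD103-/- passed in all 9 such fits (up to 0.0224).

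The other receptor of the group, Ptgir, binds prostacyclin. Ptgir read 4.38, 3.26 and 3.62 in WT, 3.61, 3.38 and 3.54 in Y3, and 3.78, 3.34 and 3.65 in Y3/CD103-/-. The groups overlapped, and WT array 1 alone stood high. Ptgir differed by -0.24 (-0.80 to 0.32, limma adjusted p = 0.648) in Y3 and -0.16 (-0.72 to 0.40, limma adjusted p = 0.834) in Y3/CD103-/-. Without WT array 1 these became 0.07 and 0.15.

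The type 2 cytokine genes gave no call. Il13, which encodes a cytokine acting on epithelium and mucus-producing cells, read 3.92, 3.91 and 3.63 in WT, 3.81, 4.07 and 3.97 in Y3, and 4.07, 3.52 and 4.36 in Y3/CD103-/-. All groups overlapped, with log2 differences from WT of 0.13 (-0.34 to 0.60) in Y3 and 0.16 (-0.31 to 0.63) in Y3/CD103-/-. Il5, the growth factor of eosinophils, lay below its array's median on all 9 arrays, between 2.19 and 2.66, and so was not tested. Its WT arrays read 2.48, 2.66 and 2.46, its Y3 arrays 2.32, 2.58 and 2.19, and its Y3/CD103-/- arrays 2.57, 2.46 and 2.20. At such low signal a difference could go unseen, and intervals on Il13 leave room for a change of up to 0.6 log2. Of the genes near Il5 and Il13 on chromosome 11, 9 of 14 listed were tested and 0 passed in limma in any comparison with WT, and by unadjusted p under 0.05 there was 1 higher in Y3/CD103-/- and 0 in Y3, with 0 lower in both. By the same unadjusted p, 7.9% of all genes were higher in Y3/CD103-/- and 13.4% in Y3. The median log2 difference of these neighbours was 0.24 in Y3, beside 0.15 for all genes. Il4, the third cytokine gene of the cluster, averaged 3.82 ± 0.38 (SD, n = 3) in WT arrays, 4.29 ± 0.36 in Y3 arrays and 3.62 ± 0.05 in Y3/CD103-/- arrays. Slc22a5, a carnitine transporter, and Uqcrq, a subunit of respiratory complex III, differed by 0.57 and 0.37 in Y3 (limma adjusted p = 0.305 and 0.339).

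**Figure D3:**
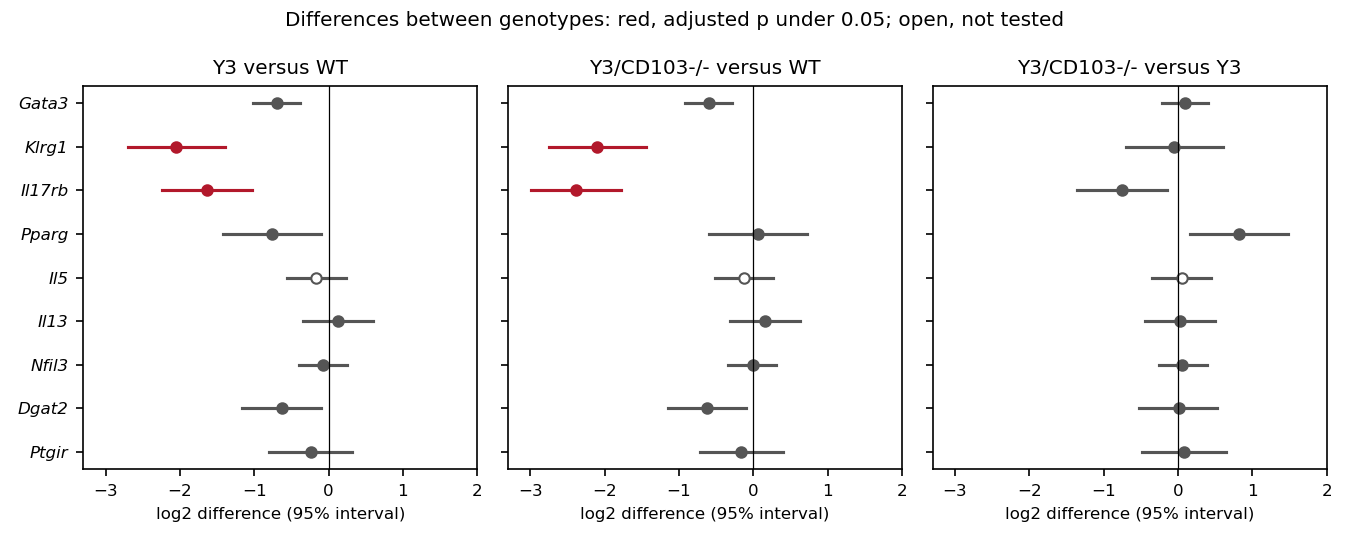
Log2 difference of each measured gene in the 3 comparisons (points) with its 95% interval from limma (lines). Red marks an adjusted p under 0.05, and open points mark Il5, which lay below the filter on dim genes and is drawn from a fit of all 22180 genes. Only Klrg1 and Il17rb are red, in both comparisons with WT, at -2.05 and -1.63 in Y3 and -2.10 and -2.38 in Y3/CD103-/-.

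The regulators and the enzyme with lipid and circadian roles gave no call in any comparison. Nfil3, a basic leucine zipper repressor active in lymphoid development and the clock, read 7.59, 7.36 and 7.65 in WT, 7.55, 7.44 and 7.38 in Y3, and 7.45, 7.60 and 7.52 in Y3/CD103-/-. The 9 arrays thus lay within 7.36 to 7.65, and the intervals of its log2 differences from WT ran from -0.40 to 0.25 in Y3 and from -0.34 to 0.31 in Y3/CD103-/-. Pparg, the nuclear receptor of fat-tissue Tregs, read 3.87, 2.76 and 3.11 in WT, 2.42, 2.25 and 2.79 in Y3, and 3.65, 3.45 and 2.81 in Y3/CD103-/-. It exceeded its array's median on WT array 1 and Y3/CD103-/- arrays 1 and 2, the 3 arrays through which it entered the test. Pparg differed by -0.76 (-1.42 to -0.10) in Y3 against WT (limma adjusted p = 0.237) and by 0.82 (0.16 to 1.48) in Y3/CD103-/- against Y3 (limma adjusted p = 0.44). Neither passed, and the Y3/CD103-/- arrays lay above every Y3 array by as little as 2.81 against 2.79. Dgat2, which makes triglycerides, read 4.64, 5.37 and 5.38 in WT, 4.51, 4.60 and 4.39 in Y3, and 4.10, 4.81 and 4.61 in Y3/CD103-/-. The WT arrays lay above the Y3 arrays by a narrow gap, and the log2 differences, -0.63 (-1.16 to -0.10) and -0.62 (-1.15 to -0.10), did not pass (limma adjusted p = 0.224 and 0.287).

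The members were chosen with earlier results of these data known, so the counts that follow are description and not independent evidence. As a set, the 8 tested genes had a median log2 difference of -0.66 in Y3, where 7 were lower, against 0.15 for all tested genes, of which 29.5% were lower. Against WT, the Y3/CD103-/- median was -0.38, with 6 lower, against 0.04 and 44.9%. Their groups did not overlap for 4 of 8 in Y3, all lower, where 23.9% of all genes did not overlap and 4.93% lay lower without overlap. For Y3/CD103-/- against WT it was 3 of 8, all lower, beside 17.4% and 6.68%. Between Y3/CD103-/- and Y3, 1 of 8 (Pparg) did not overlap, beside 18.6%, and 2 of 8 were lower, beside 66.2% of all genes. Beside Klrg1 and Il17rb, the other 6 lay between -0.76 and 0.13 in Y3. Pparg passed the filter through WT and Y3/CD103-/- arrays and no Y3 array. Without it, 6 of 7 were lower in each comparison with WT, with medians of -0.63 in Y3 and -0.60 in Y3/CD103-/-, and 4 were lower by unadjusted p in each. Between Y3/CD103-/- and Y3, 0 of these 7 were without overlap. Markers of other cells lay lower by as much: the median of 23 epithelial markers was -0.97 in Y3 and -0.58 in Y3/CD103-/-, with 21 lower in each. The median of 11 macrophage and dendritic markers was -0.66 in Y3, with 10 lower, and -0.09 in Y3/CD103-/-, with 6 lower. Their part in the lower values of the members, Klrg1 and Il17rb included, was not tested beyond the epithelial covariate given with the markers.

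Other type 2 genes gave 1 call, upward, while by unadjusted p more of them were lower than higher. Of 21 listed genes linked to GATA3 or type 2 immunity, 16 were tested, and 1 rose and 0 fell in both Y3 groups against WT, with medians of 0.01 and -0.15. The rise was that of Il18r1, the IL-18 receptor chain shared by type 1 cells, by 1.28 log2 in each (limma adjusted p = 0.0124 and 0.0129). Il18r1 missed the threshold in Y3 without Y3 array 1 (0.0845) or 3 (0.0971), nor in Y3/CD103-/- without its array 3 (0.0669). By unadjusted p under 0.05, 2 of the 16 were higher and 4 lower in Y3, and 3 higher and 4 lower in Y3/CD103-/-, beside the 13.4% higher and 3.6% lower, and 7.9% and 5.35%, of all genes. The 4 lower in Y3 were Ccr4 (-1.06 log2), Pdcd1 (-0.84), Ccr8 (-0.69) and Il10 (-0.69). None of these passed (limma adjusted p from 0.0856 to 0.159). The 2 higher were Il18r1 and Gfi1 (0.55, limma adjusted p = 0.256). Among lineage factors that act beside or against GATA3, 17 were tested and 3 rose in Y3, beside 0.618% of all genes. They were Tbx21, which encodes the type 1 factor T-bet (1.07 log2), Batf (0.83) and Runx3 (0.83). Batf, an AP-1 factor, and Runx3 are needed for effector T cell programmes. Tbx21 missed the threshold without WT array 3 (0.0681) or Y3 array 1 (0.121) or 3 (0.144). Runx3 missed it without any 1 of the 9 arrays (0.0573 to 0.219), and Batf without WT array 2 or 3 or any Y3 array (0.0681 to 0.17). For Y3/CD103-/- limma called 0 of the 17. By unadjusted p under 0.05, 4 were higher and 1 lower, beside 7.9% and 5.35% of all genes.

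Of 25 tissue and effector Treg genes, 3 rose and 1 fell in Y3, beside 0.618% and 0.172% of all genes. In Y3/CD103-/- 1 rose and 3 fell, beside 0.555% and 0.281%. Gzmb, which encodes granzyme B, rose in both, by 0.89 and 1.07 log2. Nrp1, a receptor of thymic Tregs, fell in both, by 0.88 and 1.29. Il2ra, the IL-2 receptor α chain, fell by 0.86 in Y3/CD103-/-, and Batf and Itgae account for the other rises in Y3 and Itgae for the other fall in Y3/CD103-/-. Itgae is the gene of CD103, which Y3/CD103-/- mice lack by label, so that fall checks the label and is no result about Treg genes. With 1 array left out, Nrp1 in Y3 passed without WT array 1 and in none of the other 8 fits (limma adjusted p up to 0.209), and Il2ra without Y3 array 2 alone (up to 0.0774 otherwise). Gzmb in Y3 missed the threshold without WT array 2 (0.0584) or 3 (0.052) or Y3 array 1 (0.125) or 3 (0.132). Itgae missed it in Y3 without WT array 2 (0.0559) or 3 (0.0501) or Y3 array 1 (0.093) or 3 (0.111), and in Y3/CD103-/- without WT array 1 (0.052). The fall of Nrp1 and the rise of Gzmb in Y3/CD103-/- passed in all 9 fits. The list medians were 0.13 and 0.10.

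The partner pathways of single genes were set beside them, here and in the next paragraph. For scale, limma called 0.79% of all genes in Y3 against WT and 0.836% in Y3/CD103-/-. By unadjusted p under 0.05, 13.4% of all genes were higher and 3.6% lower in Y3. For Y3/CD103-/- these shares were 7.9% and 5.35%. Of 8 tested genes of the IL-17 receptor family and IL-25 signalling, 0 were called in limma against WT, with 2 higher at an unadjusted p under 0.05 in Y3 and 1 in Y3/CD103-/-, and 0 lower in each. Il17ra, the chain with which IL-17RB pairs, averaged 6.25 ± 0.06 (SD, n = 3) in WT arrays, 6.35 ± 0.08 in Y3 arrays and 6.32 ± 0.08 in Y3/CD103-/- arrays. Traf4, Traf3ip2 and Il25, the ligand gene, differed by 0.75, 0.59 and 0.23 in Y3 (limma adjusted p = 0.101, 0.201 and 0.647). Of 7 tested lectin-like receptor and cadherin genes beside Klrg1, Clec2i, a C-type lectin gene, fell in Y3/CD103-/- by 1.11 log2 (limma adjusted p = 0.0499), a call that passed without Y3 array 2 and in none of the other 8 fits with 1 array left out (up to 0.148). In Y3 limma called 0 of the 7, with 1 higher and 3 lower by unadjusted p.

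Dgat1, the other enzyme that makes triglycerides, lay higher where Dgat2 lay lower. It rose by 0.95 log2 in Y3/CD103-/- against WT (limma adjusted p = 0.0178), the one call among 16 tested genes of PPAR-γ and lipid metabolism, and differed by 0.65 in Y3 (limma adjusted p = 0.0769), where limma called 0 of the 16 and 3 were higher and 1 lower by unadjusted p. The rise did not pass without WT array 2 (0.0517) or Y3/CD103-/- array 1 (0.0556) or 3 (0.0727). Of 14 tested clock genes around Nfil3, Nr1d1, the repressor REV-ERBα, fell by 1.31 log2 in Y3 and 1.37 in Y3/CD103-/- (limma adjusted p = 0.0165 and 0.0129). Cry2, a clock repressor, rose by 0.91 in Y3/CD103-/- and passed without WT array 1, Y3 array 2 or Y3/CD103-/- array 1, but in none of the other 6 fits with 1 array left out (limma adjusted p up to 0.097). Nr1d1 missed the threshold in Y3 without Y3 array 1 (0.095), 2 (0.0516) or 3 (0.0971), nor in Y3/CD103-/- without its array 3 (0.063). Prostanoid genes numbered 11 tested and EGF family genes 9, with 0 called in limma against WT in each. At an unadjusted p under 0.05, 1 prostanoid gene was lower and 0 higher in each comparison with WT, and 1 EGF family gene was higher and 0 lower. Ptgs2, which encodes cyclooxygenase 2, differed by -0.95 in Y3, and the prostaglandin E receptor genes Ptger4 and Ptger2 by 0.34 and 0.28 (limma adjusted p = 0.231, 0.312 and 0.397). Adam17, the protease that sheds amphiregulin from the cell surface, differed by 0.69 in Y3 and 0.79 in Y3/CD103-/- (limma adjusted p = 0.0856 and 0.054). The EGF receptor ligand genes Hbegf and Btc differed by -0.57 and -0.28 in Y3 (limma adjusted p = 0.326 and 0.416).

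**Figure D4:**
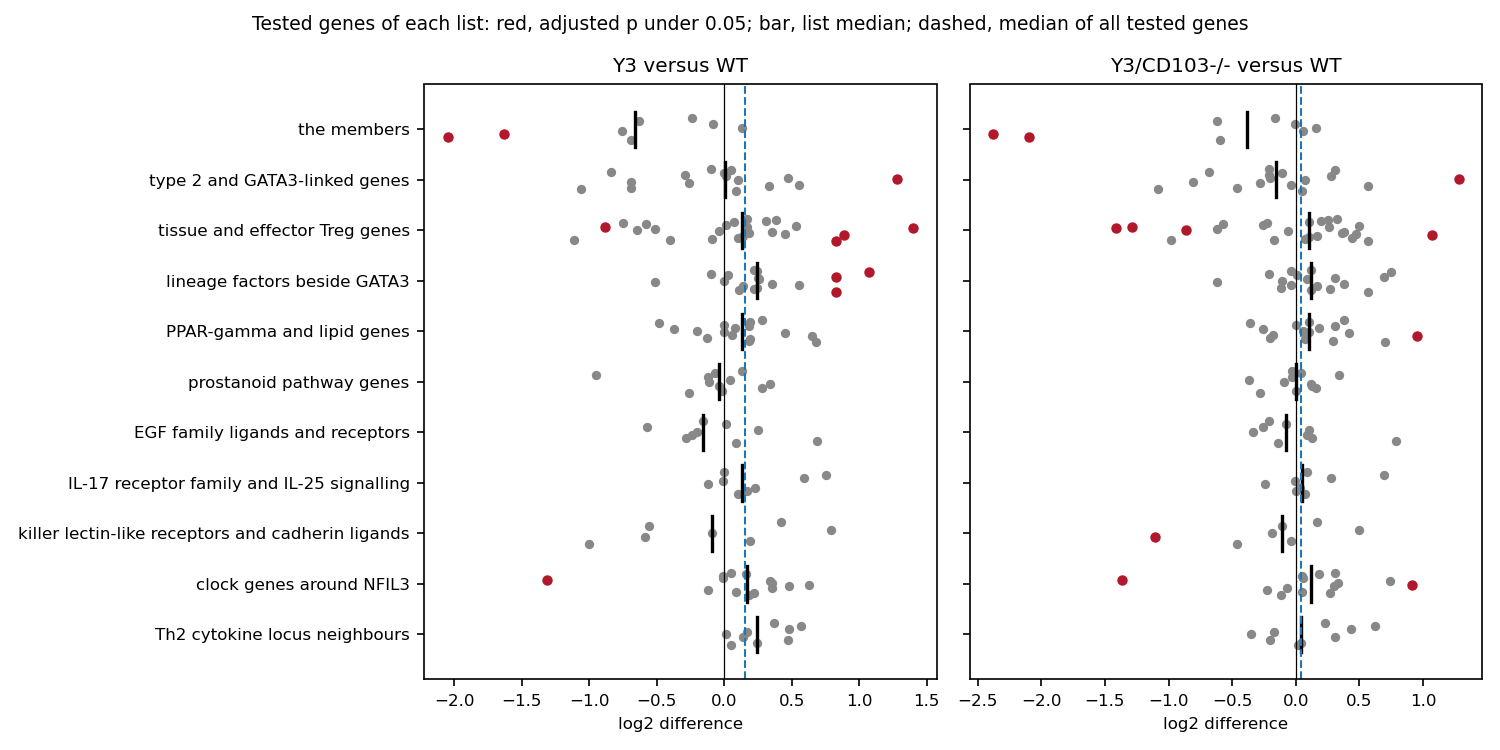
Log2 differences from WT of the tested genes of each list (points), in Y3 (left) and Y3/CD103-/- (right). Red marks an adjusted p under 0.05, the short black bar is the list's median and the dashed line the median of all tested genes, 0.15 and 0.04. The members' medians, -0.66 and -0.38, lie left of the dashed line, and the type 2 list's, 0.01 and -0.15, nearer to it.

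The genes whose profiles lay nearest to Gata3 were found by the root mean square distance over the 9 arrays, after centring each gene on its own mean. They were Zfp36, an mRNA decay factor (0.09 log2), Pde2a, a phosphodiesterase (0.104), Aqp12 (0.126), the myosin gene Myo1d (0.133) and the scaffold kinase gene Cask (0.139), where the median tested gene lay at 0.447. The WT arrays gave Zfp36 10.1 ± 0.08 (SD, n = 3), the Y3 arrays 9.49 ± 0.11 and the Y3/CD103-/- arrays 9.54 ± 0.23. Nearest to Klrg1 were Socs2, a feedback inhibitor of STAT5 signals (0.396), Il17rb (0.475), Nr1d1 (0.484), Il10ra, a chain of the IL-10 receptor (0.504), and Il7r, a chain of the IL-7 receptor (0.506), with the median gene at 1.113. These distances were given no test.

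Markers of other cells were read on the same arrays. Innate lymphoid cells of type 2 also use GATA3, KLRG1 and IL-17RB, and their part in these sorts was not tested. The mean of 9 of their markers lay at 4.32 to 4.55 in WT, 4.18 to 4.51 in Y3 and 4.27 to 4.38 in Y3/CD103-/-. Il7r, which T cells share, fell by 1.42 log2 in Y3 and 1.16 in Y3/CD103-/-. Il7r missed the threshold in Y3 without Y3 array 1 or 3 (0.0823 and 0.0964), and in Y3/CD103-/- passed without Y3 array 1 or 2 but in none of the other 7 fits (up to 0.0961). Of the 8 tested, Il7r was the one call in each comparison with WT, and the medians of the list were 0.03 in Y3 and 0.01 in Y3/CD103-/-. By unadjusted p under 0.05, 0 were higher and 1 lower in Y3, beside 13.4% and 3.6% of all genes. In Y3/CD103-/- 2 were higher and 3 lower, beside 7.9% and 5.35%. Rora and Kit, the brightest after Il7r, averaged 6.00 and 4.64 in WT arrays, 6.05 and 5.21 in Y3 arrays, and 6.31 and 5.48 in Y3/CD103-/- arrays. Cysltr1 was below the median on all arrays. Of 14 mast cell, eosinophil and basophil markers, 7 were below the array median on all 9 arrays.

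The mean of 25 epithelial markers lay at 4.75 to 5.80 in WT, 3.85 to 4.48 in Y3 and 3.82 to 5.37 in Y3/CD103-/-, with Car1, Krt8 and Reg3b the brightest. Of 23 tested, 0 were called in limma against WT. At an unadjusted p under 0.05, 12 were lower in Y3 and 6 in Y3/CD103-/-, beside 3.6% and 5.35% of all genes. With that mean as a covariate, Klrg1 differed by -1.98 in Y3 (limma adjusted p = 0.159) and -2.05 in Y3/CD103-/- (0.0612). Il17rb then differed by -1.23 (0.246) and -2.10 (0.0262), and Gata3 by -0.62 (0.304) and -0.55 (0.228), beside -1.63 and -2.38 for Il17rb and -0.69 and -0.60 for Gata3 without it. The mean of 15 macrophage and dendritic markers lay at 4.12 to 4.77 in WT, 3.79 to 3.95 in Y3 and 4.34 to 4.56 in Y3/CD103-/-. H2-Aa, among its brightest with H2-Ab1 and Cd68, fell by 1.80 log2 in Y3, a call missed without WT array 2 or 3 or any Y3 array (limma adjusted p from 0.0588 to 0.122). CD8, NK and γδ markers ran from 4.15 to 4.28 in WT, 4.51 to 4.58 in Y3 and 4.37 to 4.68 in Y3/CD103-/-. They were led by Gzma, Nkg7 and Prf1. Gzma and Nkg7 rose in both comparisons with WT (Gzma in Y3 not without Y3 array 1, limma adjusted p = 0.0796) and were the only calls. Upward calls went to 0.618% of all genes in Y3 and 0.555% in Y3/CD103-/-. Of the 7 tested, 5 were higher and 2 lower in Y3, and 4 higher and 3 lower in Y3/CD103-/-. Cd8b1 and Ncr1 lay lower in both comparisons, so the higher means were not a rise of all these markers. B and plasma cell markers ran from 4.03 to 4.25, 3.73 to 3.95 and 3.96 to 4.15, led by Xbp1, Jchain and Cd79b.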

How the data were processed

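Total RNA of sorted gut Tregs was amplified and biotin-labelled, per the labels' protocols, and hybridised to 9 arrays. The deposited values are log2 signals that the authors made by RMA, which the processing notes name (per the submitters' processing notes). Their range, 0.115 to 14.05, set the scale, and the RMA settings and annotation version were not given in the sources used here. Of 39137 features, 23521 had 1 gene in the platform annotation, 1814 several and 13802 none. The brightest feature of each of 22180 genes was kept. A gene was tested if it exceeded its array's median, 3.15 to 3.23, on at least 3 arrays.

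Groups came from the titles, 3 arrays each. limma 3.58.1 in R 4.3.3 (lmFit and eBayes, group means, all 9 arrays, no block, 10.8 degrees of freedom, 2-sided) gave differences, standard errors and Benjamini-Hochberg adjusted p-values over 12792 genes for 3 comparisons. The model was tested on simulated data. The members and the 10 pathway and 7 marker lists were chosen with earlier results of these data known. Lists share genes and were described by counts and medians, with members left out of the pathway lists. The text names all members, list genes called against WT (otherwise the 3 of smallest p in Y3), the 5 profiles nearest to Gata3 and to Klrg1, the brightest markers, and Itgae, Il2rb and Foxp3. Il17ra, Cysltr1, Cd8b1, Ncr1, Ccr4, Ccr8, Il10, Pdcd1 and Gfi1 were chosen after their values were seen. Alternatives changed the filter, features, scaling, variance model, weights, arrays, block and covariate. The fit of every feature, the omission of WT arrays 1 and 2 and the counts without Pparg were added after seeing the data.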

Additional observations from a re-analysis of the deposited data

How the results depend on the processing

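In Y3 against WT, 101 genes and 2 members were called. With no filter the count of genes was 52, with genes above the median on all 9 arrays 222, with an intensity trend 332, with array weights 346 and with only the 6 arrays compared 63, all with 2 members called or, where Gata3 passed too, 3. With the epithelial covariate 4 genes and 0 members were called, with Y3 arrays 1 and 3 averaged 12 and 0, and without WT arrays 1 and 2 together 47 and 0, the lone WT array being assumed to vary like the other groups. Leaving out 1 array gave 8 to 121 genes and 0 to 2 members. For Y3/CD103-/- against WT, with 107 genes and 2 members, these counts were 54 with no filter, 215 above the median on all arrays, 303 with the trend, 60 with weights, 17 with the 6 arrays (1 member, Il17rb), 20 with the covariate (1 member, Il17rb), 70 with the averaged arrays and 20 without WT arrays 1 and 2 (0 members). Leaving out 1 array gave 29 to 72 genes and 2 members. For Y3/CD103-/- against Y3, 1 gene was called, 3 with features averaged, 4 with the trend, 9 with weights, and 1 to 2 with an array left out, with 0 members throughout.

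Deviations of same-numbered arrays from their group means correlated between -0.04 and 0.11 over genes, and 1 of 9 pairs exceeded 0.1. Pairs of other numbers ran from -0.14 to 0.07, with 0 of 18 above 0.1. Such correlations cannot decide whether the replicate numbers mark shared batches. With the number as a block, 54 genes and 1 member were called in Y3 and 55 genes in Y3/CD103-/-, and Il17rb in Y3 had a limma adjusted p of 0.0548.

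The every-feature fit and its effect on Klrg1 and Il17rb are given with the Gata3 features. Gata3 passed in Y3 above the median on all 9 arrays, with quantile normalization, with the trend and with weights, and in Y3/CD103-/- with the first and the trend. It passed in none of the other alternatives, for example not in Y3 with no filter (limma adjusted p = 0.114) or with the replicate block (0.103). Small differences changed sign: Pparg in Y3/CD103-/- against WT with weights (-0.06), and against Y3 Klrg1 with quantile normalization (0.07) and Dgat2 with the averaged arrays (-0.02). With 1 array left out, Ptgir ranged from -0.49 to 0.07 in Y3 against WT. Against WT, the Y3/CD103-/- ranges were -0.18 to 0.30 for Pparg, -0.03 to 0.39 for Il13, -0.10 to 0.05 for Nfil3 and -0.41 to 0.15 for Ptgir. Against Y3 they were -0.39 to 0.32 for Klrg1, -0.16 to 0.27 for Il13, -0.15 to 0.21 for Dgat2 and -0.01 to 0.20 for Ptgir. The causes were not tested. Il5 on all arrays and Pparg on 6 of 9 lay at or below the array median, which limits what these arrays resolve.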
